A study of Mus musculus with 4 samples.

Results

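A set of 40 genes of the transforming growth factor beta (TGF-beta), activin and bone morphogenetic protein (BMP) system were followed in mouse embryonic fibroblasts with and without focal adhesion kinase (FAK). They were chosen by name, as ligands, binding proteins, receptors, Smads and response genes of the system. All 40 were found in the deposited table, through 89 probe sets annotated to one of them alone, out of 18194 genes and 45101 probe sets in all. The table holds 4 arrays of the Affymetrix Mouse Genome 430 2.0 design, 1 per group: FAK+/+ (wild type) untreated, FAK+/+ with endothelin-1, FAK-/- (knockout) untreated and FAK-/- with endothelin-1. FAK is a tyrosine kinase that relays signals from integrins at sites of attachment to matrix, and endothelin-1 (ET-1) is a peptide that acts through G protein-coupled receptors. All 4 cultures were embryonic fibroblasts at passage 5, grown in 10% serum, deprived of serum for 24 h at 50% confluence and then kept for 24 h with or without ET-1. The labels name no second culture, clone or animal for any group.

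TGF-beta is secreted in a latent complex that is tethered to the matrix by latent TGF-beta binding proteins, and integrins or thrombospondin can release it. Released TGF-beta and activin bind pairs of type II and type I receptors that phosphorylate Smad2 and Smad3, whereas BMPs act on Smad1 and Smad5, and both branches use Smad4. Extracellular antagonists such as follistatin for activin and gremlin for BMPs, and the intracellular inhibitors Smad6, Smad7, Smurf and Ski, limit the signal. In fibroblasts TGF-beta is best known for raising matrix and contractile genes, and BMPs for raising Id genes.

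Values are RMA summaries on a log2 scale, so a difference of 1 is 2-fold, and each gene is given by its brightest probe set. A gene was tested when its highest value passed the median of the whole table (log2 8.90), which 37 of the 40 genes and 12290 genes in all did. Bmp2, which encodes a BMP ligand, read 5.58 to 5.64, Nog, which encodes the BMP antagonist noggin, read 7.62 to 7.97, and Ltbp2, which encodes a matrix protein of the latent TGF-beta binding family, read 7.84 to 8.37, all below that level in every array. With 1 array per group no difference between 2 arrays has a replicate error or a test. One test was run, an additive limma fit of genotype and treatment over all 4 arrays and all 12290 genes with Benjamini-Hochberg adjustment. It averages the genotype difference over both treatment states, and its standard error (SE) and p-value measure that difference against the genotype by treatment term, not against a spread between cultures. In the text, rose and fell are kept for genes past an adjusted p of 0.05 in that fit.

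The arrays and the cells differed in ways that touch these genes. The wild-type array with ET-1 had a 3' to 5' gap of 3.79 for the Gapdh control probe sets, against 0.85 to 0.90 in the other 3 arrays. For the Actb control probe sets the gap was 1.81 in that array and 0.66 in the untreated wild type. It was 1.30 in the untreated and 1.27 in the ET-1-treated knockout. Fibroblast markers averaged log2 12.67 and 12.79 in the untreated and ET-1-treated wild type and 10.94 and 10.47 in the knockout, and 8 of the 9 tested fell. Mesothelial markers averaged 11.12 and 9.45 in wild type and 13.76 and 13.54 in the knockout, and 4 of 5 rose. Epithelial markers averaged 9.87 and 8.98 in wild type and 10.54 and 10.25 in the knockout, and of 7 tested 3 rose and 1 fell. Among all genes tested 6.6% rose and 7.05% fell. In each array 1 of 5 endothelial markers passed the level filter, and the defining endothelial markers Pecam1 and Cdh5 were below it in every array. Of 5 macrophage markers 2 or 3 passed it in each array. Csf1r rose by 1.09 and Cd14 fell (-0.65) by limma, while Ptprc and Cd68 were below the filter throughout. The part of these differences in the results that follow was not tested, and in bulk RNA a smaller share of cells of one type cannot be told apart from less RNA per cell. The gene that encodes FAK was not analysed here, so the genotype labels were not checked against it.

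In both treatment states Ltbp1, Inhba, Fst and Grem1 were at least 2-fold lower in the knockout, and Bmp4 and Bmp6 at least 2-fold higher. These were 4 and 2 of the 37 tested genes, beside 4.0% and 3.47% of all genes tested. Bmp4 lay close to the limit and did not reach 2-fold untreated with quantile normalisation, nor did Inhba with the mean of all its probe sets. Taken singly, 6 were 2-fold lower and 2 higher in the untreated arrays, beside 4.59% and 4.78% of all genes. With ET-1, 5 were lower and 4 higher, beside 6.53% and 5.61%. The promoter sequences of 5 of these genes are shown because their genotype difference reached 2-fold in both states. Each is the stretch of 250 bases before an annotated start in RefSeq (GRCm38.p6), written 5′ to 3′ along the gene's strand, and Ltbp1 has 2 annotated starts. Capitals mark matches to CAGAC, the core letters that Smad3 and Smad4 recognise, read on both strands (CAGAC or GTCTG), and to GGCGCC, a GC-rich motif of BMP-responsive Smads that reads the same on both strands.
Ltbp1, first start (chr17:75005279-75005528, plus strand): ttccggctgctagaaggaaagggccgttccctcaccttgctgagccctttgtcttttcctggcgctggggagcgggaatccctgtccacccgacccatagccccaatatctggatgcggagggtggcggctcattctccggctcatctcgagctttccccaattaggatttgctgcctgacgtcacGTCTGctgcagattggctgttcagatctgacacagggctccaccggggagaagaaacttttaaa
Ltbp1, other start (chr17:75178531-75178780, plus strand): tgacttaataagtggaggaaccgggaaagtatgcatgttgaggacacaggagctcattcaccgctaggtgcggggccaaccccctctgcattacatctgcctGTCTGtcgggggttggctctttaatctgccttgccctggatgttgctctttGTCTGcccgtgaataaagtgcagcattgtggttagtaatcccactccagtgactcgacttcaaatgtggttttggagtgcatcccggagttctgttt
Inhba (chr13:16011601-16011850, plus strand): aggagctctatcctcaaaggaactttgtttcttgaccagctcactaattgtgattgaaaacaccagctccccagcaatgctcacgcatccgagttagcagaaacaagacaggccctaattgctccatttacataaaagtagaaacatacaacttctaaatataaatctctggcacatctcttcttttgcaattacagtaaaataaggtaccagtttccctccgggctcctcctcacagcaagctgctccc
Grem1 (chr2:113758649-113758898, minus strand): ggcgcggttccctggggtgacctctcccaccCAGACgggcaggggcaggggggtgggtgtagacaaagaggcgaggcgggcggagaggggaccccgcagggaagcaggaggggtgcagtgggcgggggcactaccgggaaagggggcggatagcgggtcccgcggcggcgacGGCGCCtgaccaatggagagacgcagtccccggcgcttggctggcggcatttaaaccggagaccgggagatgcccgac
Bmp4 (chr14:46390670-46390919, minus strand): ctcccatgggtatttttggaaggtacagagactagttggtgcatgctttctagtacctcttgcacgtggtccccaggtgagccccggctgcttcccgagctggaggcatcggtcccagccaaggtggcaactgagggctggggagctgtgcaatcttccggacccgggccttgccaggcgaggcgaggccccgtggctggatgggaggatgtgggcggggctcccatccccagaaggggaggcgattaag
Bmp6 (chr13:38345466-38345715, plus strand): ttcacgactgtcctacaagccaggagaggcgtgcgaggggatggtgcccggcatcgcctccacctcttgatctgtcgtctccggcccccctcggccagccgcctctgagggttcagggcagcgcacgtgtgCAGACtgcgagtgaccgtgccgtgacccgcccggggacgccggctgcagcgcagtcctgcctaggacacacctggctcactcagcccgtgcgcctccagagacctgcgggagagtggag

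The windows do not split by direction. Among the genes that were lower, Grem1 held CAGAC from 219 and GGCGCC from 78 bases before its start, Ltbp1 held GTCTG from 64 bases before its first start and from 148 and 97 bases before the other, and Inhba held neither motif. Of the genes that were higher, Bmp6 held CAGAC from 119 bases before its start and Bmp4 held neither. CAGAC was present in 42.2% of all 32851 windows of this length, and in 19 of the 39 windows (48.7%) of the 29 listed genes that the promoter table holds. GGCGCC was present in 9.59% of all windows and in 10 of those 39, whose median GC content was 66.4% against 52.4% overall. The motifs can share 1 base where they abut, and a match is a string of letters and not a measured binding site.

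By limma 9 of the 37 tested genes differed between genotypes, beside 13.6% of all genes tested. Bmp6, Bmp4 and Tgfbr1 rose in the knockout, and Ltbp1, Grem1, Fst, Inhba, Smurf1 and Fstl1 fell. Over all genes tested 6.6% rose and 7.05% fell. The median genotype difference of the 37 tested genes was -0.10 untreated and -0.11 after ET-1, beside 0.02 and -0.03 over all genes tested, with called genes on both sides. The difference had the same sign in both states for 31 of the 37 genes, beside 71.8% of all genes tested.

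**Figure D1:**
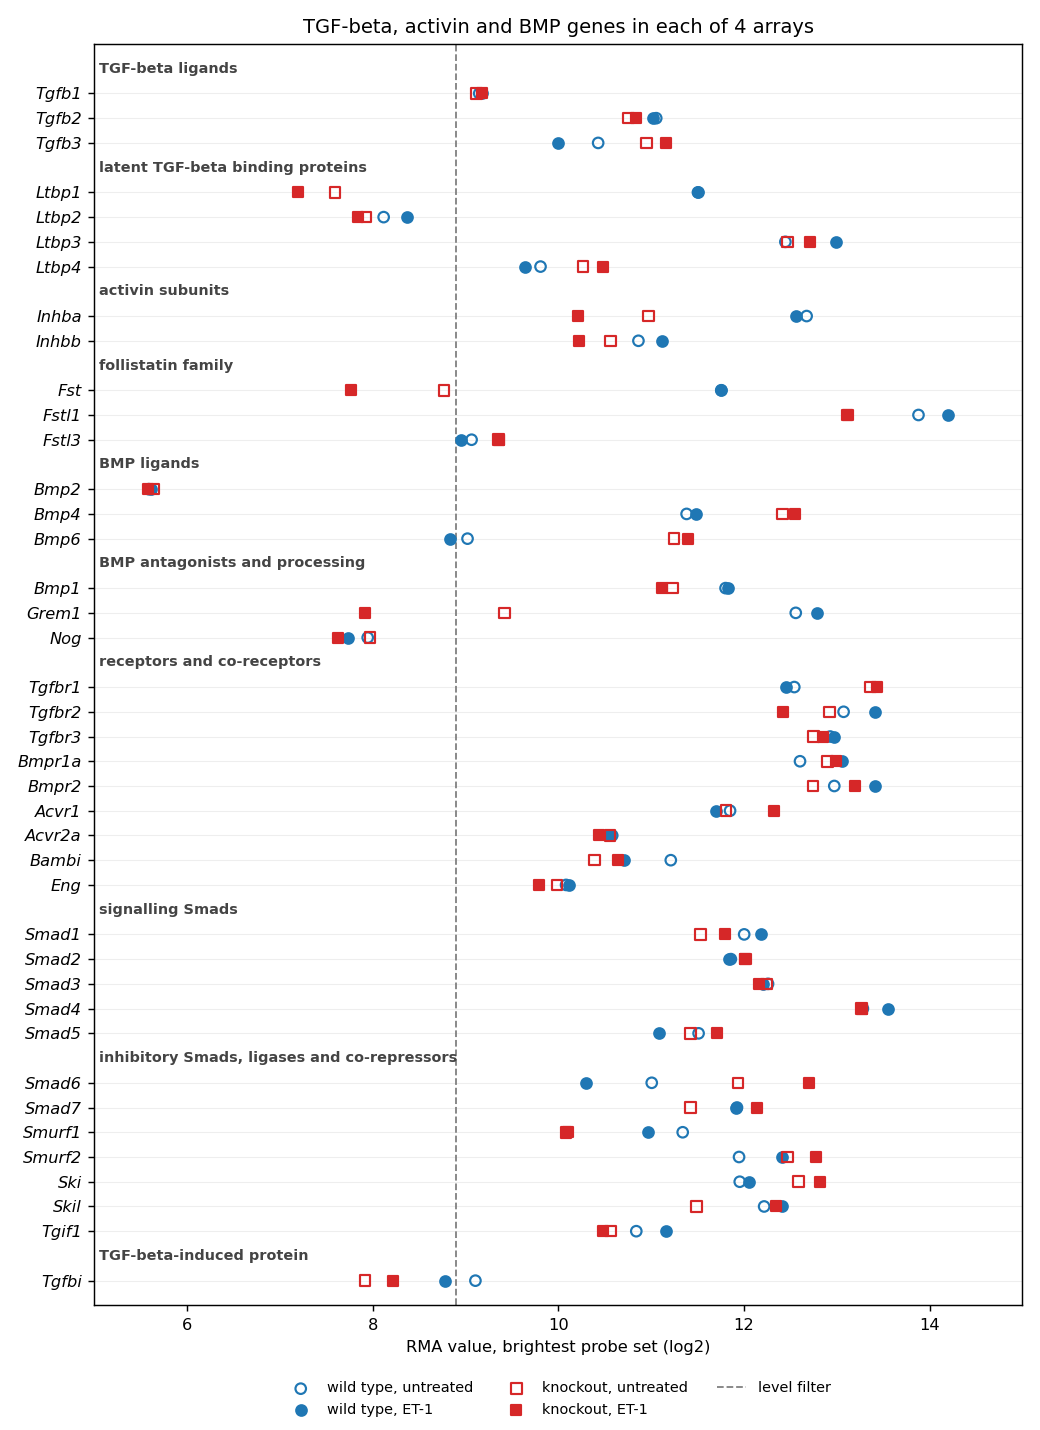
RMA value of the brightest probe set (log2, x axis) of all 40 genes in each of the 4 arrays, grouped by role; circles are wild type, squares knockout, open untreated and filled ET-1, and the dashed line is the level filter at log2 8.90. Ltbp1, Fst and Grem1 show the widest distance between circles and squares, and Tgfb1, Smad2 and Smad3 lie almost on top of each other.

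None of the 3 TGF-beta ligands passed the limma threshold, and of the latency proteins only Ltbp1 did. Tgfb1, the main isoform in most tissues, read 9.12 to 9.18 in all 4 arrays, a range of values just above the filter. The other probe set of Tgfb1, below the filter in every array, was less even. Its genotype difference was -0.45 untreated and 0.04 after ET-1, and its ET-1 difference in the knockout was 0.45. Tgfb2 read 11.05 and 11.02 in the untreated and ET-1-treated wild type and 10.75 and 10.84 in the knockout. Tgfb3 read 10.43 and 9.99 in wild type and 10.95 and 11.16 in the knockout, so the groups did not overlap and the gap after ET-1 was 2.25-fold. Its genotype difference of 0.84 ± 0.20 (SE) had an adjusted p of 0.0746 by limma and passed with a stricter level filter or with array medians subtracted (0.0232 and 0.0168).

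Ltbp1 encodes the latent TGF-beta binding protein that anchors the latent complex to fibronectin and fibrillin matrices. It read 11.50 in untreated and 11.51 in ET-1-treated wild type, and 7.59 and 7.19 in the knockout, where it was below the level filter. The knockout was thus lower by 15.05-fold without and 20.0-fold with ET-1, values that are uncertain because the lower arrays read in the dim range. Ltbp1 fell by 4.12 ± 0.14 on the log2 scale (adjusted p = 0.00556). Both other probe sets of Ltbp1 were below the filter in every array, and both were also lower in the knockout, by 0.45 and 0.51 untreated and by 0.60 and 1.08 after ET-1. Their mean with the brightest gave a fall of 1.81.

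Ltbp3 and Ltbp4 were not called by limma, and Ltbp2, below the filter, differed by -0.19 untreated and -0.53 after ET-1. Ltbp3, which chaperones TGF-beta through secretion, read 12.45 and 12.99 in wild type and 12.47 and 12.71 in the knockout. Its other bright probe set differed by -0.01 untreated and 0.56 after ET-1. The dim probe sets of Ltbp3 were lower in the knockout, with -1.06 and -0.87 untreated and -0.54 and -0.25 after ET-1. Ltbp4, a family member found with elastic fibres, read 9.81 and 9.64 in wild type and 10.27 and 10.48 in the knockout, a difference of 0.65 ± 0.14 with an adjusted p of 0.0574 by limma. It lay just outside the threshold, and Tgfbr1 (adjusted p = 0.0369) lay just inside.

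On the activin side, a ligand subunit and its antagonist were both lower in the knockout. Inhba, which encodes the beta-A subunit of activin A and inhibin A, read 12.67 and 12.57 in wild type and 10.97 and 10.21 in the knockout. The gap was 3.26-fold without and 5.13-fold with ET-1, and Inhba fell by 2.03 ± 0.23 (adjusted p = 0.0153 by limma). Its only other probe set, dim in all arrays, differed by -0.08 and -0.11, and the mean of both gave -1.06. Inhbb, the beta-B subunit, read 10.86 and 11.12 in wild type and 10.56 and 10.22 in the knockout (-0.60 ± 0.19, adjusted p = 0.133 by limma).

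Fst encodes follistatin, a secreted protein that binds activin and keeps it from its receptors. It read 11.75 in both wild-type arrays and 8.77 and 7.76 in the untreated and ET-1-treated knockout, both below the level filter. It fell by 3.49 ± 0.27 (adjusted p = 0.00825 by limma), a 7.92-fold gap without and a 15.9-fold gap with ET-1. The second probe set of Fst was lower by 1.06 and 0.96, and the mean of both gave -2.25. Fstl1, a secreted follistatin-like glycoprotein of mesenchymal cells, read 13.88 and 14.19 in wild type and 13.12 and 13.11 in the knockout and fell by 0.92 ± 0.15 (adjusted p = 0.0318). Averaged over both of its probe sets the difference was -1.03 with an adjusted p of 0.0506 when the mean of probe sets above the filter was used. Fstl3, which binds activin like follistatin, read 9.06 and 8.95 in wild type and 9.36 in both knockout arrays (0.35 ± 0.10, adjusted p = 0.0985 by limma).

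The BMP ligands Bmp4 and Bmp6 rose in the knockout and the antagonist Grem1 fell, while the antagonist Chrd, from the further lists, rose. Bmp4, a ligand that patterns mesoderm and is made by many mesenchymal cells, read 11.38 and 11.48 in wild type and 12.42 and 12.54 in the knockout. It rose by 1.05 ± 0.16 (adjusted p = 0.0308 by limma), or 2.05-fold untreated and 2.09-fold after ET-1. Bmp6, a ligand also known for control of hepcidin in liver, read 9.02 and 8.83 in wild type, on either side of the level filter, and 11.25 and 11.39 in the knockout. It rose by 2.39 ± 0.13 (adjusted p = 0.00586), or 4.68-fold and 5.91-fold. For both ligands the knockout arrays lay above both wild-type arrays and the ET-1 difference was 0.19 or less in size in each genotype. Each has 1 probe set, so no second probe set bears on them.

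Grem1 encodes gremlin, which binds BMP2 and BMP4 and keeps them from their receptors. It read 12.56 and 12.79 in wild type, 9.42 in the untreated knockout and 7.92 in the ET-1-treated knockout. It fell by 4.01 ± 0.45 (adjusted p = 0.0154 by limma), a gap of 8.81-fold without and 29.3-fold with ET-1, the last against an array in the dim range. Bmp1, which despite its name encodes a metalloproteinase that cleaves procollagen, chordin and latency proteins, read 11.80 and 11.83 in wild type and 11.23 and 11.11 in the knockout (-0.64 ± 0.16, adjusted p = 0.0798). Fibroblast markers were lower in the same arrays as Grem1, and mesothelial markers were higher in the same arrays as Bmp4 and Bmp6. In the knockout, fibroblast markers averaged 10.94 untreated and 10.47 with ET-1, where Grem1 read 9.42 and 7.92. In wild type, mesothelial markers averaged 11.12 untreated and 9.45 with ET-1, while Bmp4 and Bmp6 differed by 0.10 and -0.19. Whether these values are linked was not tested.

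**Figure D2:**
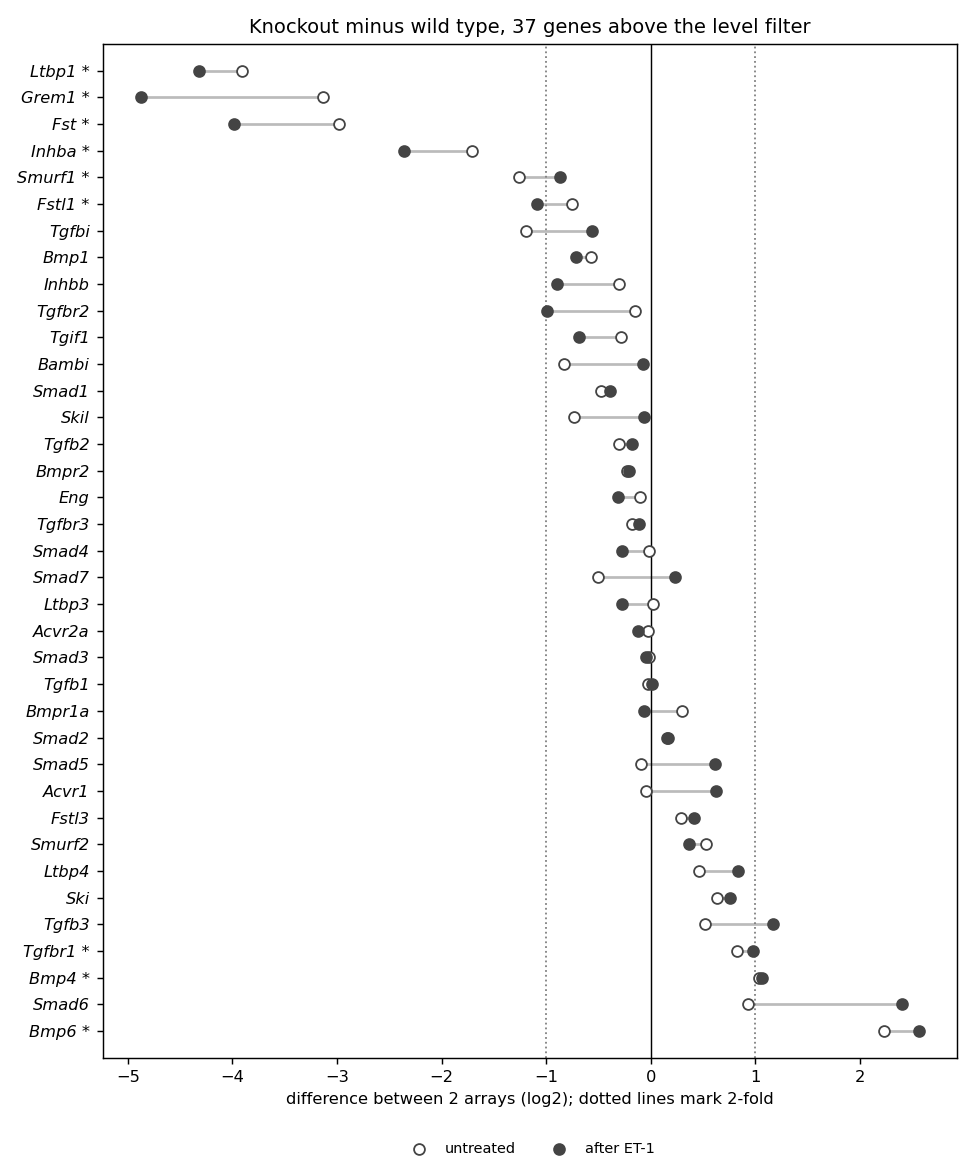
Knockout minus wild type (log2, x axis) for the 37 genes above the level filter, untreated (open) and after ET-1 (filled), sorted by their mean; each point is a difference between 2 arrays, an asterisk marks an adjusted p under 0.05 by limma, and dotted lines mark 2-fold. Ltbp1, Grem1, Fst and Inhba lie left of 2-fold in both states and Bmp4 and Bmp6 right of it, and most other genes lie between the dotted lines.

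Probe sets of the same gene give a further view of these values, though they share the same RNA and are no replicates. Of the 6 genes past the limma threshold that have more than 1 probe set (Ltbp1, Inhba, Fst, Fstl1, Smurf1 and Tgfbr1), all but Tgfbr1 had the same sign of difference in every probe set in both states. For Tgfbr1 the dim probe sets differed by 0.21 and 0.04 untreated and by 0.21 and -0.03 after ET-1. Over the 18 genes with at least 2 probe sets above the filter, the median range between a gene's probe sets was 0.29 for the untreated genotype difference and 0.66 after ET-1. The same medians over 5240 genes of the whole table were 0.27 and 0.45. Genotype differences below these ranges, such as those of Smad3 and of the brightest probe set of Tgfb1, are therefore smaller than the usual disagreement between probe sets.

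**Figure D3:**
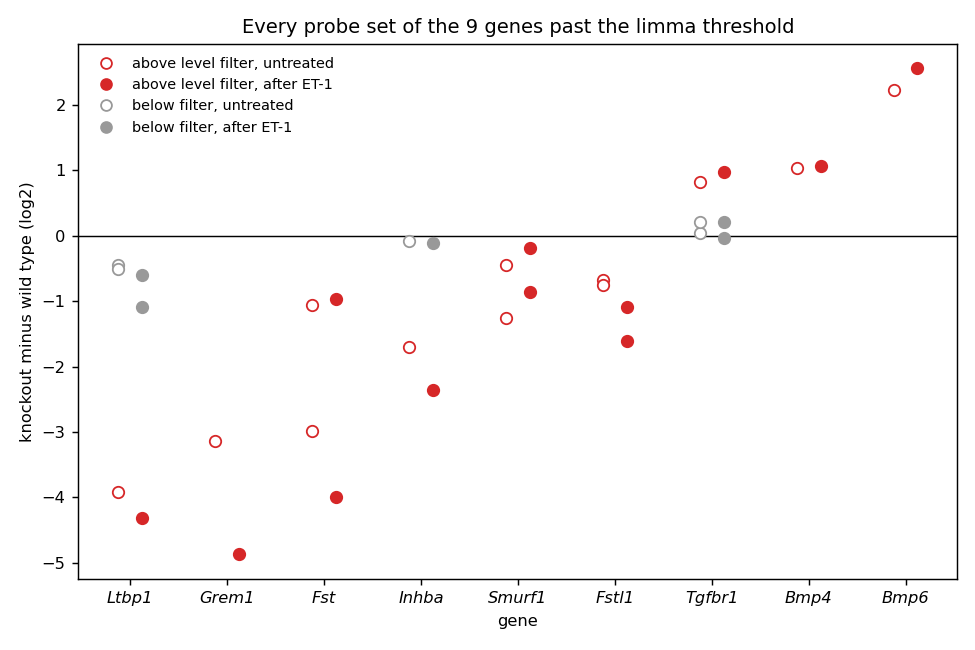
Knockout minus wild type (log2, y axis) in every probe set of the 9 genes past the limma threshold, untreated (open) and after ET-1 (filled), with probe sets above the level filter in red and dim ones in grey. Bright probe sets of a gene share a direction, and the dim probe sets of Ltbp1, Inhba and Tgfbr1 lie nearer to 0 than the bright one.

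Among the receptor genes only Tgfbr1 passed the limma threshold. Tgfbr1, the type I receptor of TGF-beta, read 12.54 and 12.45 in wild type and 13.36 and 13.43 in the knockout. It rose by 0.90 ± 0.15 (adjusted p = 0.0369 by limma), and with the mean of all its probe sets the difference was 0.37 with an adjusted p of 0.0671. The type II receptor Tgfbr2 read 13.07 and 13.41 in wild type and 12.92 and 12.42 in the knockout. The difference was -0.15 untreated and -0.99 after ET-1, and limma did not call Tgfbr2 (adjusted p = 0.240). Its second bright probe set differed by 0.14 untreated and -0.24 after ET-1, and the mean of probe sets above the filter gave -0.31. The co-receptors Tgfbr3 (betaglycan) and Eng (endoglin) differed by -0.15 ± 0.15 and -0.21 ± 0.11. The BMP and activin receptors Bmpr1a, Bmpr2, Acvr1 and Acvr2a had genotype differences between -0.22 and 0.29 by limma. Bambi, a decoy receptor that lacks the kinase domain, read 11.21 and 10.71 in wild type and 10.39 and 10.64 in the knockout, where only the untreated arrays stood apart.

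None of the 5 signalling Smads passed the threshold. Smad2 and Smad3, which carry TGF-beta and activin signals, differed by 0.16 ± 0.16 and -0.03 ± 0.16, and the shared Smad4 by -0.14 ± 0.15. Smad1 and Smad5, which carry BMP signals, differed by -0.43 ± 0.16 (adjusted p = 0.183 by limma) and 0.26 ± 0.23. The bright probe sets of Smad4 disagreed, with untreated differences of -0.02, -0.19 and 0.69, so no direction is given for it. These are transcript levels, and the phosphorylation that activates Smads was not measured.

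Among the intracellular inhibitors, Smurf1 fell and Smad6 was higher without passing the test. Smurf1, a ubiquitin ligase that targets BMP Smads and type I receptors, read 11.34 and 10.97 in wild type and 10.08 and 10.10 in the knockout. It fell by 1.06 ± 0.15 (adjusted p = 0.0254 by limma), and its second probe set was lower by 0.45 untreated and 0.19 after ET-1, and the mean of both gave -0.69 (adjusted p under the alternatives up to 0.0455). Smad6, an inhibitor of BMP Smads that BMP itself induces, read 11.01 and 10.30 in wild type and 11.94 and 12.70 in the knockout. Its difference was 0.93 untreated and 2.40 after ET-1, and the fit gave 1.67 ± 0.40 with an adjusted p of 0.0770. Smad6 passed with the stricter level filter (0.00634) and with array medians subtracted (0.0120).

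None of the remaining regulators passed the limma threshold. Ski, a co-repressor of Smads, read 11.95 and 12.06 in wild type and 12.59 and 12.82 in the knockout (0.70 ± 0.17, adjusted p = 0.0761 by limma). Its relative Skil read 12.22 and 12.41 in wild type and 11.49 and 12.34 in the knockout, so only the untreated knockout stood low. Smad7, the inhibitor common to both branches, read 11.92 and 11.91 in wild type and 11.42 and 12.14 in the knockout, so the untreated knockout was again lowest and here the knockout with ET-1 was highest. Tgif1, a homeodomain co-repressor, and the ligase Smurf2 differed by -0.48 ± 0.16 and 0.44 ± 0.17. The other bright probe sets of Smurf2 differed by -0.80 and 0.13 untreated and by -1.09 and 0.55 after ET-1, so no direction is given for Smurf2. Tgfbi, a matrix protein named for its induction by TGF-beta, read 9.11 and 8.78 in wild type and 7.92 and 8.22 in the knockout. The gap was 2.28-fold without and 1.48-fold with ET-1 (-0.87 ± 0.19, adjusted p = 0.0608 by limma). Only the untreated wild-type array lay above the level filter for Tgfbi, so these sizes are uncertain. All 4 probe sets of Tgfbi were lower in the knockout in both states, but all except the brightest were below the filter in every array.

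After ET-1 few of these genes differed by much within a genotype. By limma 0 of the 37 differed between treatments, as did 0 of all 12290 genes, and at an unadjusted p under 0.05 there was 1 of the 37 beside 5.23% of all genes. That gene was Bmpr2, the type II BMP receptor, which read 12.97 and 13.41 in wild type and 12.74 and 13.20 in the knockout, with an ET-1 difference of 0.44 and 0.46. In wild type 0 of the 37 reached 2-fold, beside 0.781% of all genes higher and 1.17% lower. In the knockout Grem1 was 2.84-fold lower after ET-1 and Fst 2.01-fold lower, and none of the 37 was 2-fold higher, beside 0.277% of all genes lower and 0.236% higher there. Both Fst readings in the knockout lay below the level filter, its second probe set differed by -0.24, and Fst did not reach 2-fold with either mean of probe sets or with quantile normalisation. Of the 9 fibroblast markers tested, 8 were lower in the knockout with ET-1 than without, with a median of -0.29 and a range from -2.10 (Thy1) to 0.73 (Pdgfra). Among all 12290 genes tested, 5489 were higher with ET-1 there, with a median of -0.02.

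The ET-1 difference had opposite signs in the genotypes for 21 of the 37 genes, beside 43.4% of all genes tested. Its difference between genotypes reached 2-fold for Smad6 (1.47), Grem1 (-1.73) and the brightest probe set of Fst (2.01-fold, lower in the knockout), beside 1.59% of all genes higher and 1.31% lower. Smad6 differed by -0.71 after ET-1 in wild type and by 0.76 in the knockout and Grem1 by 0.23 and -1.50, and both also met the condition of opposite signs with a 2-fold gap, as did 2.25% of all genes. Fst read 11.75 in both wild-type arrays, its second bright probe set had 0.10 with the opposite sign, and it did not reach 2-fold with either mean of probe sets or with quantile normalisation. Of the 7 inhibitory Smads, ligases and co-repressors, 6 had a positive ET-1 difference in the knockout, beside 5489 of all 12290 genes tested. The 6 ran from 0.02 (Smurf1) to 0.86 (Skil), and Tgif1 had -0.08. In wild type 4 of the 7 were positive, beside 6988 of the 12290, and the values ran from -0.71 (Smad6) to 0.47 (Smurf2). The dim second probe set of Skil differed by 0.01 in the knockout. For Smurf1 the second probe set, also above the filter, differed by -0.15 there, so the sign of Smurf1 depends on the probe set. The wild-type values rest on the array with the large Gapdh gap. Among bright probe sets of one gene the ET-1 difference had a median range of 0.37 in wild type and 0.23 in the knockout, and for Smad7 both probe sets were higher in the knockout, by 0.72 and 0.74.

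**Figure D4:**
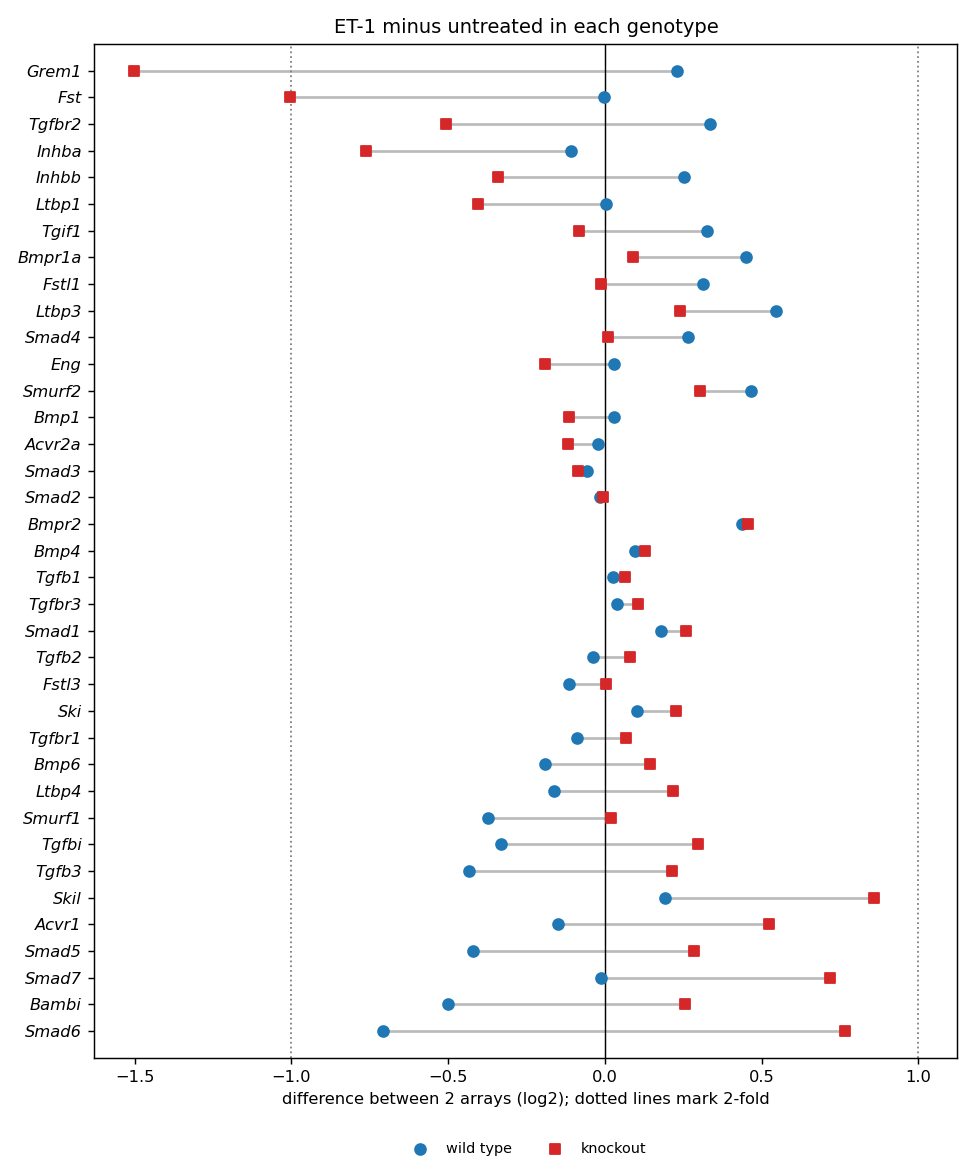
ET-1 minus untreated (log2, x axis) in wild type (blue circles) and in the knockout (red squares) for the 37 genes above the level filter, sorted by the difference between both; each point is a difference between 2 arrays and dotted lines mark 2-fold. Grem1 lies farthest to the left in the knockout at -1.50, and Smad6 lies on opposite sides of 0 in the genotypes.

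Further genes of the pathway were taken from lists of ligands, receptors, regulators and targets. Beside the calls in each list, 6.6% of all genes tested rose and 7.05% fell by limma. Of 19 further ligands measured, 12 passed the level filter, and 0 rose and 0 fell. Lefty1, an antagonist of nodal, had the largest difference of the 4 named by rule (0.45 ± 0.13, adjusted p = 0.104 by limma), while Inha, Bmp8b and Amh differed by 0.25, -0.12 and 0.08. Of 9 further receptors tested, Amhr2, the type II receptor of anti-Mullerian hormone, rose by 1.25 ± 0.22, and Neo1 (neogenin), which binds the RGM co-receptors of BMPs, fell by 0.92 ± 0.15. Rgma and Acvr2b differed by -0.40 and 0.20. Of 27 further intracellular regulators tested, Map3k7, the kinase TAK1 of the Smad-independent branch, rose by 0.92 ± 0.14, and 0 fell. Pmepa1, an inhibitor that TGF-beta induces, had -1.33 ± 0.28 (adjusted p = 0.0608), and Crebbp and Zeb1 each had -0.66 or -0.67.

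Among further extracellular regulators calls went both ways. Of 17 tested, 5 rose and 5 fell, beside 6.6% and 7.05% of all genes tested. The median difference was -0.03 untreated and -0.23 after ET-1, beside 0.02 and -0.03 over all genes. Thbs1, which encodes the thrombospondin that can activate latent TGF-beta, read 12.79 and 11.33 in wild type and 9.41 and 9.14 in the knockout and fell by 2.79 ± 0.32. Itgb8, a subunit of an integrin that activates latent TGF-beta, read 7.84 and 7.38 in wild type and 10.06 and 10.41 in the knockout and rose by 2.62 ± 0.22, with both wild-type arrays in the dim range. Chrdl1, a chordin-like BMP antagonist, fell by 2.74 ± 0.22, with both knockout arrays in the dim range. Its relative Chrd rose by 1.10 ± 0.17 (adjusted p = 0.0307 by limma) and the BMP-binding Bmper by 1.22 ± 0.18 (adjusted p = 0.0272), and both are named after their values were seen. Dcn, the proteoglycan decorin that binds TGF-beta, rose by 1.85 ± 0.12.

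The target lists differed in their calls. Of 17 common TGF-beta targets tested, 12 fell and 0 rose by limma, beside 7.05% and 6.6% of all genes tested. Their median difference was -0.99 untreated and -1.33 after ET-1, beside 0.02 and -0.03 over all genes tested. Nox4, an NADPH oxidase that makes hydrogen peroxide, fell (-4.08 ± 0.34). Its knockout arrays read 6.03 and 5.64, near the lowest value of the table (5.00), so the size is uncertain. The matrix gene Postn fell (-4.98 ± 0.95, adjusted p = 0.0478 by limma), with 10.98 in the untreated knockout and 7.70 with ET-1. Tgfb1i1, a focal adhesion adaptor, also fell (-2.94 ± 0.20). Col1a1 read 13.84 and 14.26 in wild type and 12.29 and 11.87 in the knockout and fell by 1.96 ± 0.25. Col1a1 and Col1a2 are in both this list and the fibroblast markers, which were lower in the same arrays.

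Of 9 common BMP targets tested, 0 rose and 0 fell by limma, beside 6.6% and 7.05% of all genes tested. A genotype difference that varied between the states widened the SE of this fit, so 0 calls do not show equal levels. The median difference was 0.31 untreated and 0.97 after ET-1, beside 0.02 and -0.03 over all genes. Untreated, 0 of the 9 reached 2-fold either way. After ET-1, 4 were 2-fold higher in the knockout and 0 lower, beside 5.61% and 6.53% of all genes. All 9 were lower after ET-1 in wild type and higher after ET-1 in the knockout, as were 13 of the 37 listed genes and 15.6% of all genes tested. Id1, an inhibitor of differentiation and a direct BMP target, read 10.07 and 8.53 in wild type and 10.99 and 12.34 in the knockout. Id2 read 11.38 and 10.03 in wild type and 12.22 and 12.82 in the knockout, so both were lowest in wild type with ET-1 and highest in the knockout with ET-1. The first of these is the array with the large Gapdh gap. Their limma differences were 2.36 ± 0.73 (adjusted p = 0.127) and 1.82 ± 0.51 (adjusted p = 0.107). Atoh8 had 1.22 ± 0.29 (adjusted p = 0.0770), with the same order of the 4 arrays as Smad6, and Gata2 had -0.62 ± 0.16.

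**Figure D5:**
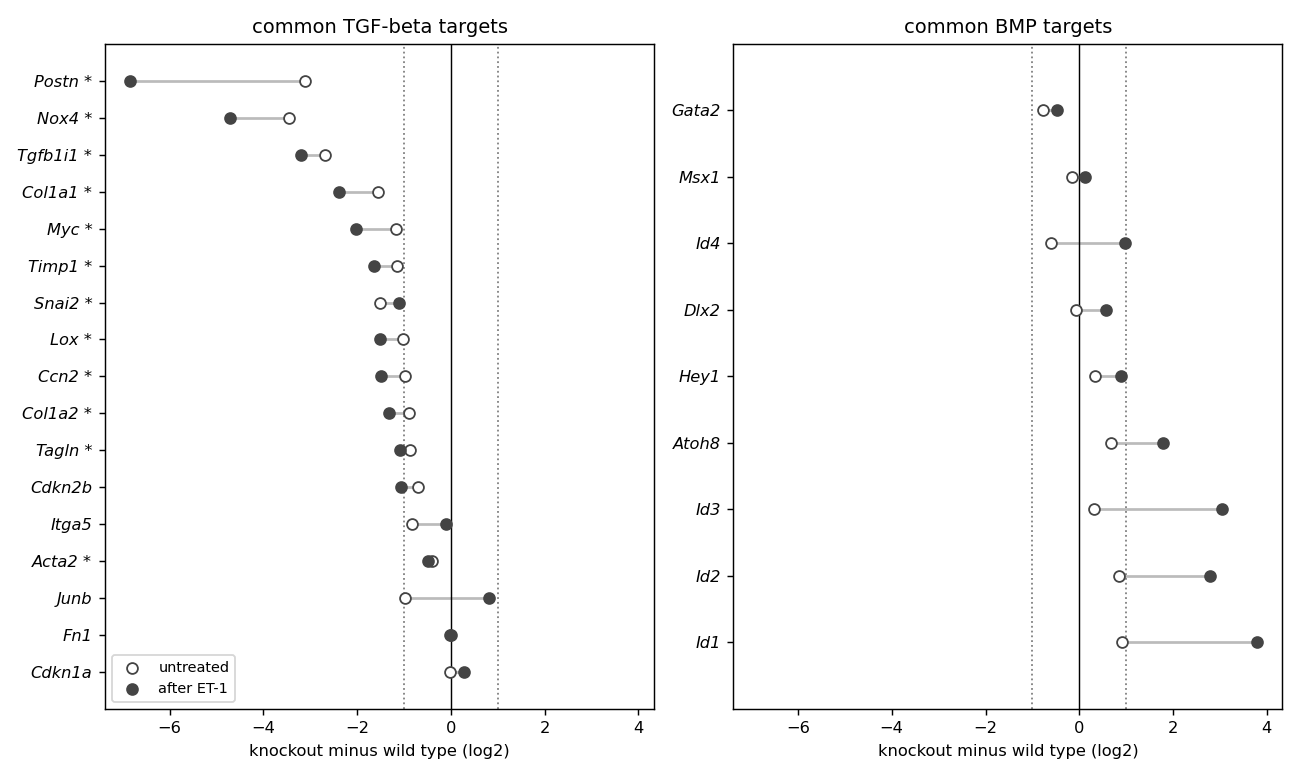
Knockout minus wild type (log2, x axis) for common TGF-beta targets (left, 17 genes) and common BMP targets (right, 9 genes) above the level filter, untreated (open) and after ET-1 (filled); asterisks mark an adjusted p under 0.05 by limma and dotted lines 2-fold. Most TGF-beta targets lie left of 0 in both states, and Id1, Id2, Id3 and Atoh8 lie right of 0, farther after ET-1 than untreated.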

How the data were processed

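Total RNA (100 ng per sample) was labelled in 2 cycles and hybridised to 4 arrays, 1 per group, per the labels' protocols. The authors deposited log2 values per probe set, made with RMA per the submitters' processing notes, with version and background steps not given in the sources used here. The lowest value is log2 5.00, so differences of dim genes may be understated. Probe sets were named through the platform annotation, and those of several genes (932, 1 of them naming a listed gene) were left out. A gene was represented by its brightest probe set, with a level filter at the table's median. limma 3.58.1 (R 4.3.3, lmFit, eBayes with trend) used 1 residual and 3.00 prior degrees of freedom. The code was run on simulated data with planted shifts larger than that of any listed gene and equal noise for all genes. That run does not bear on the calls made here. An exact permutation of 2 arrays against 2 cannot give a p below 0.333. Python 3.11.15, pandas 2.3.3, numpy 2.4.6 and matplotlib 3.10.9 did the rest. The genes, further lists, naming rule (all listed genes, and up to 4 per further list, those past the limma threshold first, then by the size of the smaller of both genotype differences) and alternatives were chosen with earlier results of these data known.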

Additional observations from a re-analysis of the deposited data

Results flagged for a closer look

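The difference between both ET-1 differences is given for genes whose ET-1 difference had opposite signs in the genotypes and differed between them by 2-fold or more. It compares single arrays and was not tested. Among the listed genes these were Smad6 (1.47, knockout minus wild type on the log2 scale) and Grem1 (-1.73), and 2.25% of all genes tested met the same condition. Among further pathway genes named by rule these were Id1 (2.88), Id2 (1.95), Atoh8 (1.11), Nox4 (-1.26) and Postn (-3.74). The wild-type ET-1 array, with its Gapdh gap of 3.79, enters each of these values, and its part was not tested.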

How the results depend on the processing

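No paired analysis was possible because each group has 1 array. By limma the count of the listed genes that differed by genotype was 9 and lay between 8 and 13 under the 7 alternatives, and the count for treatment was 0 in each. Ltbp1, Inhba, Fst, Grem1, Bmp4, Bmp6 and Smurf1 passed in all 7, and Tgfbr1 and Fstl1 in 6 of 7. With array medians subtracted, 1183 genes in all rose and 1139 fell, against 811 and 866 as given. At 1.5-fold in place of 2-fold the listed genes numbered 14 (8 at 2-fold) for genotype untreated, 19 (9) for genotype after ET-1, 1 (0) for ET-1 in wild type, 6 (2) for ET-1 in the knockout and 13 (3) for the difference of ET-1 differences. Averaging every probe set of a gene left 5 for genotype untreated and 1 for ET-1 in the knockout. Quantile normalisation and the mean of probe sets above the filter, which was chosen after seeing the data, each gave 1 for ET-1 in the knockout; in these 3 settings the gene lost was Fst. Signs turned, all without a call, for Ltbp3 (0.0753 with probe sets above the filter, 0.0254 untreated alone), Acvr1 (-0.0459) and Smad5 (-0.089) untreated alone, Smad3 (0.0028) with all probe sets, and Smad2 (-0.0396), Smad4 (0.2454) and Smurf2 (-0.055) with either mean of probe sets. The cause was not tested. With 1 array per group, the number of arrays limits every value.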
